A study of Homo sapiens with 14 samples.

Results

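Notch signalling genes were followed through 14 arrays of 2 glioblastoma cell lines in which the long noncoding RNA LINC00152 was knocked down. The group comprised 10 genes, chosen by name: the receptors NOTCH1, NOTCH2 and NOTCH3, the ligands JAG1, JAG2 and DLL1, and the target genes HES1, HES4, HEY1 and HEYL. Every non-control probe whose accession belonged to one of these genes was taken, which gave 12 probes for 10 of 10 genes, out of 20992 genes with a named probe on the array. NOTCH1 and NOTCH2 had 2 probes each and the other genes 1.
In Notch signalling a ligand on one cell binds a receptor on its neighbour, the receptor is cut by ADAM proteases and gamma-secretase, and its intracellular part enters the nucleus. There it joins the DNA-binding protein RBPJ and coactivators and switches on target genes, among them the transcriptional repressors of the HES and HEY families. In the brain the pathway is known for keeping neural stem cells undifferentiated, and it has been widely studied in glioma.

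A172 and U87 are established human glioblastoma lines. Cells were electroporated with a negative control siRNA that has no RNA target or with an siRNA against exon 1 of LINC00152, and RNA was taken after 40 h according to the sample labels, although the study's text gives a later time. A172 had 3 control and 3 knockdown arrays and U87 had 4 and 4, from independent experiments numbered as sets, and a control and a knockdown array of the same set were treated as a pair. Each line is a single culture model grown alone, without the neighbouring cell types of a tumour, and the control cells had been electroporated too. The study lists more than 1 siRNA against exon 1, and the labels do not say which of them was used for the arrays. The 25 bases of siLINC00152 #1 are shown, with no letters capitalized, because it is the siRNA whose effect on LINC00152 was also measured by PCR in both lines.
siLINC00152 #1, exon 1: tgcctgtcttcagatcttcacagca

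Values below are log2 processed signals minus the 75th percentile of the array, so that 0 marks the brightness of the 75th percentile spot, and a difference of 1 is a 2-fold change. A probe was tested in a comparison when it was well above background, by the scanner software, on at least 3 arrays of a group. A probe was called at a Benjamini-Hochberg adjusted p (FDR) below 0.2 in limma together with an absolute log2 fold change above 0.5. Where groups are said not to overlap, the share of all probes without overlap was not counted. The U87 arrays were dimmer: between 35.7% and 48.3% of spots were well above background there, against 57.3% to 69.0% in A172. The A172 arrays lay on 3 slides with 1 pair each and all U87 arrays on 1 other slide, so cell line and slide cannot be told apart. On the U87 slide the controls occupied the first array row and the knockdowns the next, so that treatment and row cannot be told apart either. The U87 arrays of a set shared an array column.

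The knockdown itself was large in both lines. The LINC00152 probe read 2.63, 2.44 and 2.48 in the A172 controls of sets 1 to 3 and 0.23, -0.42 and -0.10 in the knockdowns. In U87 it read 1.94, 1.83, 1.71 and 1.82 in the controls and -1.21, -0.88, -0.74 and -0.79 in the knockdowns. The groups did not overlap in either line, and LINC00152 fell by 2.61 ± 0.24 (log2, SE) in A172 (adjusted p = 0.000731, lower in 3 of 3 pairs) and by 2.73 ± 0.21 in U87 (adjusted p = 4.96e-05, lower in 4 of 4 pairs). The related transcript MIR4435-2HG, which shares much of its sequence with LINC00152, was read by 3 probes. Of these, A_21_P0012079 was called in both lines, with log2 fold changes of -2.44 in A172 (adjusted p = 0.00339, lower in 3 of 3 pairs) and -2.97 in U87 (adjusted p = 7.13e-05, lower in 4 of 4 pairs). A_21_P0012078 stood at -1.53 and -2.08 (adjusted p = 1 and 0.316) and was called in both lines with the set number as a block in limma (adjusted p = 0.0126 and 0.00446, lower in 3 of 3 and 4 of 4 pairs). A_33_P3269678 was not called in either line and stood at -0.31 in both. A lower signal from the same cells and fewer cells contributing that signal cannot be told apart in bulk RNA.

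The arrays were checked against marker genes of glial and other cells. The glioma-associated genes NES, VIM and CD44 were well above background on 14 of 14 arrays. The astrocyte genes GFAP and S100B were not: S100B was above background on 0 of 14 arrays, and GFAP on 1 array with 1 of its 2 probes. SOX2 was read on 6 of 6 A172 arrays and on 0 of 8 U87 arrays, and OLIG2 on 6 of 6 and on 3 of 8. The markers of other cell types differed by probe. The epithelial genes CDH1 and EPCAM were above background on 0 and 1 of 14 arrays, whereas 1 probe each of CD14 and CDH5, 1 of 5 probes of PTPRC and 1 of 2 probes of RBFOX3 read signal on 14 of 14. The leukocyte marker PTPRC had 5 probes, of which A_23_P12392 was above background on 0 of 14 arrays, the neuronal SYP was read on 0 of 3 controls and 3 of 3 knockdowns in A172 and on 0 of 4 and 1 of 4 in U87, without a call in A172, and endothelial PECAM1 on 6 of 6 A172 arrays with 1 of 3 probes and on 0 of 8 U87 arrays.
Among the markers, CD44, a surface receptor for hyaluronan, was lower after the A172 knockdown with 1 of 2 probes. Probe A_33_P3294509 read 3.00, 1.76 and 1.47 in the A172 controls and 1.72, 0.66 and 0.47 in the knockdowns, lower in 3 of 3 pairs although the ranges overlapped. The log2 fold change of -1.13 was not called without the block (adjusted p = 1) and was called with it (adjusted p = 0.00807), as was its difference from U87 (-1.25, adjusted p = 0.0861 with the block). The other CD44 probe stood at -0.24 and was not called. No other marker probe was called in either knockdown in limma with or without the block, and the part of the markers in the values below was not tested. In control cells NES probe A_23_P103672 (3.02) and CDH5 (1.13) were called higher in A172 by these log2 differences, and VIM (-1.64), RBFOX3 (-2.06) and NES probe A_33_P3358233 (-0.87) lower. SOX2, 1 probe of PECAM1 and PTPRC probe A_33_P3309526 were above background on 0 of 4 U87 controls, and SYP on no control of either line, so no difference is given for them although limma called all 4.

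None of the tested Notch probes was called in either knockdown, with 1 exception, DLL1 in A172, when the set number as a block was combined with normexp background correction, a combination chosen after the data were seen. In A172, 9 of the 12 probes, from 7 genes, were bright enough to test, and limma called 0 of 9, beside 0.184% of all 28337 probes tested (52 probes). At an unadjusted p under 0.05 the count was 1 of 9. In U87, 6 probes from 5 genes were tested and 0 called, beside 0.0502% of 21918 probes (11 probes), and at an unadjusted p under 0.05 the count was also 0. Over all probes 646 in A172 and 505 in U87 had an unadjusted p under 0.05. With the set number as a block, which moved the calls over all probes to 924 in A172 (3.26%) and 917 in U87 (4.18%), limma still called 0 of 9 and 0 of 6 Notch probes, and 3 and 1 of them had an unadjusted p under 0.05. With the block 3031 of all 28337 probes in A172 and 3692 of all 21918 in U87 had such a p. The median log2 fold change of the tested Notch probes was 0.15 in A172, where that of all tested probes was 0.02, with 6 probes above 0 and 3 below. In U87 it was -0.26 beside -0.02 for all, and 6 of 6 stood below 0, although NOTCH3 turned to 0.02 after normexp, which models and subtracts the background and then adds a constant. JAG1, HES1 and HEY1 were tested in neither line, and NOTCH1 probe A_23_P60387, JAG2 and DLL1 were not tested in U87.

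NOTCH1, a receptor with a long extracellular chain of EGF repeats, was bright with probe A_33_P3370424. It read 4.70, 5.34 and 4.78 in the A172 controls and 4.76, 5.51 and 4.62 in the knockdowns. In U87 it read 2.89, 2.79, 3.16 and 2.37 in the controls and 2.58, 2.65, 2.43 and 2.03 in the knockdowns. Set 2 was highest in A172 in both groups and set 4 lowest in U87 in both, and the control and knockdown ranges overlapped in each line. The A172 difference was 0.02 ± 0.31 (log2, SE) and took the opposite sign, -0.02, after quantile normalization and in the deposited values. The U87 difference was -0.37 ± 0.27, lower in 4 of 4 pairs, with an adjusted p of 1 and, with the set as block, of 0.208. Under the alternatives limma's lowest adjusted p for it was 0.0609 and the difference ranged from -0.52 to -0.24, without a call.
The other NOTCH1 probe, A_23_P60387, gave -0.50, -0.71 and -0.86 in A172 controls and -0.80, -0.64 and -1.04 in the knockdowns, ranges that overlapped, with a difference of -0.14 ± 0.28 and an adjusted p of 1 (lower in 2 of 3 pairs). It was well above background on 0 of 8 U87 arrays. The receptor therefore had 1 probe that read both lines and 1 that read A172 only.

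NOTCH2, the receptor of the same build that is prominent in glial cells, was lower after the knockdown in most pairs with both of its probes. Probe A_23_P200792 read 2.83, 3.56 and 3.12 in the A172 controls and 2.59, 3.06 and 2.58 in the knockdowns. In U87 the same probe read 2.19, 2.55, 1.05 and 2.49 in the controls and 2.00, 2.24, 0.95 and 2.18 in the knockdowns. Each knockdown array stood below the control of its set, 7 of 7 pairs over both lines, but the sets differed by more than that and the ranges overlapped, with set 3 far below the others in U87. The differences were -0.43 ± 0.42 in A172 and -0.23 ± 0.37 in U87, with adjusted p = 1 in both. With the set as block the adjusted p was 0.199 in A172, where the change was short of the fold threshold, and 0.315 in U87.
Probe A_33_P3258824 read 1.44, 0.95 and 1.36 in A172 controls and 1.16, 0.46 and 0.75 in the knockdowns, and from 1.75 to 2.02 in U87 controls against values up to 1.93 in the knockdowns. The knockdown was lower in 3 of 3 A172 pairs and 3 of 4 U87 pairs, the exception being U87 set 3, and the ranges overlapped in both lines. The A172 difference was -0.46 ± 0.25 (adjusted p = 1, and 0.217 with the set as block) and the U87 difference -0.10 ± 0.21 (adjusted p = 1, and 0.659). With the block and normexp together both NOTCH2 probes had a lower adjusted p in A172, 0.0219 for A_23_P200792 at -0.37 and 0.0214 for A_33_P3258824 at -0.42, and both remained short of the fold threshold.
The human genome holds near-identical partial copies of NOTCH2, the NOTCH2NL genes, which NOTCH2 probes may also read. Of these, NOTCH2NLA had 2 named probes, with log2 fold changes of -0.63 and -0.37 in A172 and, for the 1 tested in U87, -0.06, none of them called.

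NOTCH3, the receptor best known from vascular smooth muscle, read 1.17, 2.08 and 1.72 in the A172 controls and 1.59, 2.04 and 1.78 in the knockdowns. In U87 it read -0.08, -0.07, 0.75 and 0.11 in the controls and 0.30, -0.01, 0.05 and 0.04 in the knockdowns. Most U87 arrays lay close together, with control set 3 above the rest, and the treatments overlapped in both lines. The differences were 0.15 ± 0.30 in A172, higher in 2 of 3 pairs, and -0.08 ± 0.26 in U87, lower in 2 of 4 pairs (adjusted p = 1 in both), and the U87 sign turned to 0.02 with normexp.

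**Figure D1:**
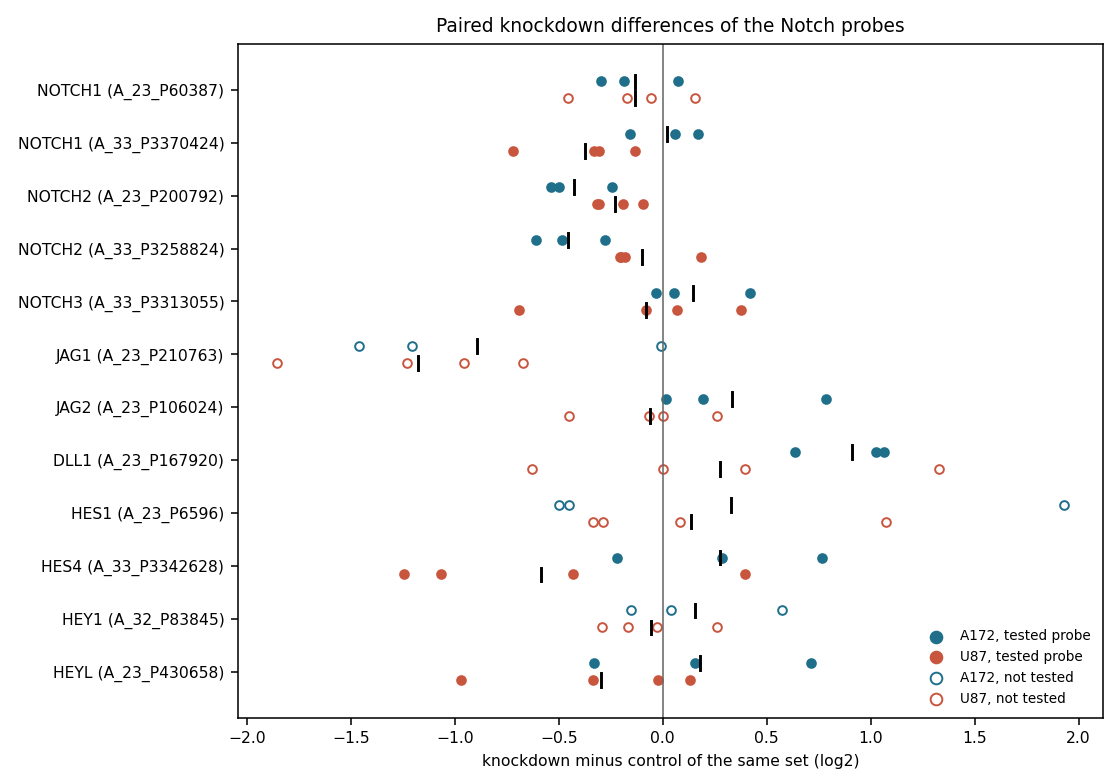
Knockdown minus control of the same set (log2, horizontal axis) for each Notch probe, A172 in blue and U87 in red, with black ticks at the mean of the pairs and open points where the probe was not tested. Both NOTCH2 probes lie left of 0 in 3 of 3 A172 pairs and DLL1 lies right of 0 in 3 of 3; the NOTCH1 A_33_P3370424 mean in A172 changes sign with quantile normalization and with the deposited values, and the NOTCH3 mean in U87 with normexp.

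The ligands were dim. JAG1, a transmembrane ligand of the Jagged type, was well above background on 1 of 3 A172 controls, 0 of 3 A172 knockdowns, 1 of 4 U87 controls and 0 of 4 U87 knockdowns, and was not tested. Its signals were -2.91, -3.26 and -5.16 against -4.11, -4.72 and -5.17 in A172, and -3.14, -2.33, -3.11 and -1.52 against -4.38, -4.19, -3.78 and -2.48 in U87. The knockdown array was the lower in 7 of 7 pairs, with overlapping ranges. The knockdown arrays, and all control arrays but 1 in each line, gave no signal well above background. Their values are upper limits, and most pairs compared background readings. The direction of those pairs cannot be read from them, and no fold change is given.
JAG2, the other Jagged ligand, read -3.08, -2.89 and -2.33 in A172 controls and -2.29, -2.69 and -2.31 in the knockdowns. The lowest values were the controls of sets 1 and 2, the ranges overlapped, and the difference of 0.33 ± 0.33 was not called (adjusted p = 1, higher in 3 of 3 pairs). In U87 JAG2 was above background on 0 of 8 arrays.

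DLL1, a ligand of the Delta type, showed the largest A172 knockdown difference among the Notch probes. It read -1.65, -0.74 and -1.37 in the A172 controls and -0.59, -0.10 and -0.35 in the knockdowns. The 3 knockdown arrays lay above the 3 controls without overlap, and set 2 was highest in both groups. The difference was 0.91 ± 0.41 on the log2 scale, a ratio of 1.88, and higher in 3 of 3 pairs, but limma's adjusted p was 1, and 0.319 with the set as block, so it was not called. With the block and normexp together it was called, at 0.57 (adjusted p = 0.00307), beside 636 calls over all probes, and with the block and quantile normalization or the deposited values it was not. Without the block it was the 1 Notch probe with an unadjusted p under 0.05 in A172. In U87 DLL1 was above background on 0 of 8 arrays, and whether the lines responded differently was not tested for it.

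Among the target genes, HES1, the classical HES repressor, was mostly at background: it was well above it on 1 of 3 A172 controls, 2 of 3 A172 knockdowns, 0 of 4 U87 controls and 1 of 4 U87 knockdowns, and was not tested. Its signals were -5.36, -3.09 and -0.77 in the A172 controls and -3.43, -3.54 and -1.27 in the knockdowns. In U87 they were -2.30, -2.86, -1.05 and -2.26 against -2.58, -1.79, -0.97 and -2.59. The A172 controls spanned more than 4 log2 units and set 3 was the brightest in each of the 4 groups. Most of these values were background readings, so sets and treatments cannot be compared from them.
Across the 7 paired differences, 11802 genes were ranked by their likeness to HES1. HES1 was above background on both arrays of only 1 pair, so the ranking mostly followed background signal and no gene is named from it.

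HES4, a HES family repressor, read -0.29, -0.20 and 0.45 in the A172 controls and 0.48, 0.08 and 0.23 in the knockdowns. In U87 it read -1.15, -1.96, -0.12 and -1.94 in the controls and -2.39, -1.56, -1.19 and -2.37 in the knockdowns, of which 2 of 4 were well above background. Set 3 was the highest in both U87 groups, and the treatments overlapped in each line. The differences were 0.28 ± 0.46 in A172, higher in 2 of 3 pairs, and -0.59 ± 0.40 in U87, lower in 3 of 4 pairs, neither of them called (adjusted p = 1, and 0.964 and 0.327 with the set as block).
HEYL, a HEY family repressor, ranged from -1.05 to 0.14 in A172 controls and from -0.90 to -0.18 in the knockdowns, and from -2.19 to 0.07 and from -3.16 to -0.27 in U87. U87 set 4 was low, and not well above background, in both groups, so that 3 of 4 arrays measured HEYL in each, and the ranges overlapped throughout. The differences were 0.18 ± 0.66 and -0.30 ± 0.57 (adjusted p = 1 in both, higher in 2 of 3 A172 pairs and lower in 3 of 4 U87 pairs). HEY1, the remaining HEY repressor, was above background on 0 of 14 arrays.

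Since RBPJ binds a short motif, the promoters of the group were searched for it. RefSeq's promoter table (GRCh38.p14, 250 bases before to 50 after the start) held 8 of the 10 genes, and did not list DLL1 and HEY1. The motif GTGGGAA, on either strand, was present in 3 of the 8 promoters, those of HES1, HES4 and HEYL, and in 6.25% of all 35116 promoters in the table (2194). The core TGGGAA, which lies within the longer motif, was present in the same number of the 8 and in 24% of all. The last 200 bases before the start are shown for these 3 genes because theirs were the promoters of the group that held the motif, with the motif or its reverse complement TTCCCAC in capitals. It lay 85 to 79 bases before the start in HES1, 77 to 71 in HES4 and from 178 bases before the start in HEYL, on the opposite strand in the latter. A match of letters is a description and no binding was measured.
HES1, chr3:194135948-194136147, + strand: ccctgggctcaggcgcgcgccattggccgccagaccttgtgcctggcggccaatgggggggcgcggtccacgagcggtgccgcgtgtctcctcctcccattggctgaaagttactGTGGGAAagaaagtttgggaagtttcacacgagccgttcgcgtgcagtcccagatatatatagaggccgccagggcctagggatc
HES4, chr1:1000098-1000297, - strand: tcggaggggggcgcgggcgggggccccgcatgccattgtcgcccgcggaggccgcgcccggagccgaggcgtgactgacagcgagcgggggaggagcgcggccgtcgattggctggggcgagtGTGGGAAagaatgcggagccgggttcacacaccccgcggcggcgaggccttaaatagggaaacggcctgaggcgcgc
HEYL, chr1:39639644-39639843, - strand: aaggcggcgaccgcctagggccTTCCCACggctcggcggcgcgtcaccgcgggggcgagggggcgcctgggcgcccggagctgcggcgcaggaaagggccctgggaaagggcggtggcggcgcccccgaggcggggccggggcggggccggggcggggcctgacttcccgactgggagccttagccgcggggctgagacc

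A direct test of whether the knockdown acted differently in the lines was possible for 6 Notch probes, from NOTCH1, NOTCH2, NOTCH3, HES4 and HEYL. Limma called 0 of 6, beside 0.00945% of 21161 probes (2 probes), and 0 of 6 with the set as block, beside 0.421% (89 probes). At an unadjusted p under 0.05 the counts were 0 and 0, beside 166 and 1757 over all probes. The largest difference was that of HES4, 0.86 ± 0.61 higher in A172 on the log2 scale (adjusted p = 1, and 0.635 with the block). This HES4 value ranged from 0.36 to 1.19 under the alternatives.

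In control cells, 9 probes from 7 genes were tested and 8, from 6 genes, were called, beside 54.4% of all 29093 probes. Of these, 7 were higher in A172, where 26.7% of all probes were called, and 1 was lower, where 27.6% were. However, 3 of the 7, NOTCH1 probe A_23_P60387, JAG2 and DLL1, passed the filter through A172 alone, with 0 of 4 U87 controls above background. The median log2 difference (A172 minus U87) of all probes was 0.02. The scale mattered here: normexp moved this median to -0.28, quantile normalization to 0.11 and the deposited values to 0.13, and normexp lowered the share of calls that were higher in A172 from 49.2% (7781 of 15818) to 32.0% (4908 of 15359). The quantity added by normexp, 50 intensity units, was of similar size to the 75th percentile of the U87 arrays, which ranged from 33.0 to 69.0, against 131 to 284 in A172. With normexp 3 of 9 Notch probes were called, beside 15359 of all 29093 probes. With quantile normalization and with the deposited values 7 of 9 were called, beside 16016 and 16001 of all probes.

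Of the 5 receptor probes tested, 3 were called with every scaling, and no other Notch probe was. The share of all probes called with every scaling was not counted. NOTCH1 probe A_33_P3370424 was higher by 2.14 ± 0.29 in A172, a ratio of 4.40 (adjusted p = 8.44e-05), and the lowest A172 control, 4.70, was above the highest U87 control, 3.16. NOTCH3 was higher by 1.48 ± 0.28, a ratio of 2.79 (adjusted p = 0.000977), and NOTCH2 probe A_23_P200792 by a ratio of 2.14 (adjusted p = 0.041). In each of them 3 of 3 A172 controls exceeded 4 of 4 U87 controls. HEY1, at background on every array, did not overlap between these controls either. The share of all probes without such overlap was not counted.
The probes of NOTCH2 disagreed. A_33_P3258824 was lower by 0.60 ± 0.23 in A172 (log2 difference -0.60, adjusted p = 0.0554), again without overlap, with 3 of 3 A172 controls below 4 of 4 U87 controls. That call was lost at -0.16 with normexp, where it stood 0.12 above the median of all probes, at -0.48 with quantile normalization, at -0.47 with the deposited values and at -0.45 without A172 control set 2. Both NOTCH2NLA probes were called higher in A172, by 1.25 (adjusted p = 0.162) and 0.79 (adjusted p = 0.152), 1 of them above background on 1 of 4 U87 controls and the other on 3 of 4. Which transcripts each NOTCH2 probe reads was not tested.

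For NOTCH1 probe A_23_P60387, JAG2 and DLL1, no U87 array was well above background, so only a lower bound can be given, written "at least N-fold": the mean of the A172 controls against the U87 mean of, on each array, the higher of the probe's own signal and the lowest signal among probes well above background. On the 75th percentile scale NOTCH1 was at least 2.36-fold higher in A172 with this probe and DLL1 at least 1.59-fold, while for JAG2 the bound was under 1 and no fold is given. The bounds do not hold on every scale: with normexp none of the 3 was called, NOTCH1 stood at 0.44 on the log2 scale, which is under its bound, and the sign turned for DLL1 and JAG2.
HES4 was higher by 1.28 ± 0.43 in A172, a ratio of 2.43 (adjusted p = 0.0318), although the lowest A172 control, -0.29, was below U87 control set 3 at -0.12, and with normexp the difference was 0.44 and not called. HEYL did not pass the test, at 0.44 ± 0.62 (adjusted p = 0.61), and stood at -0.10 with normexp, 0.18 above the median of all probes. JAG1, HES1 and HEY1 were not tested.

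**Figure D2:**
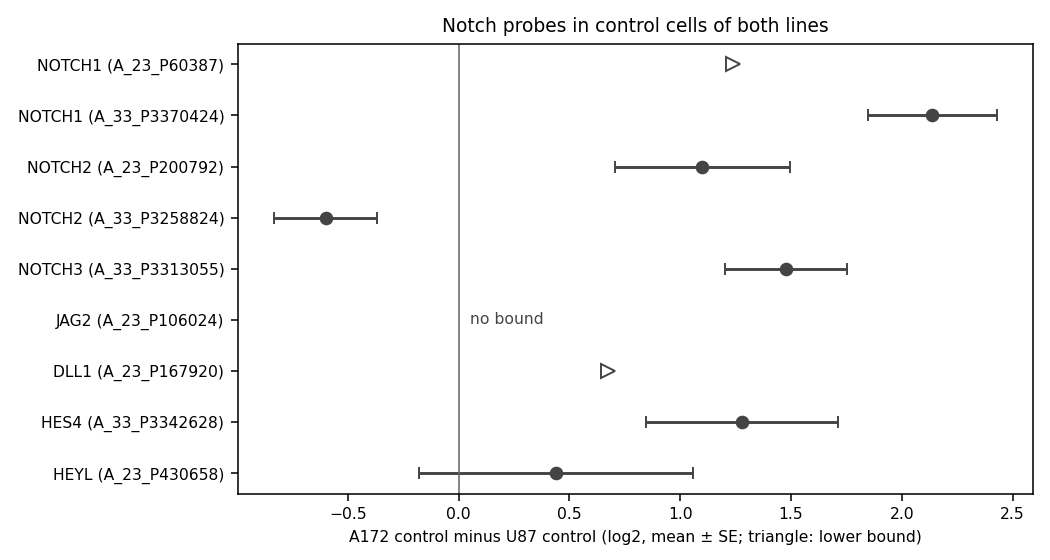
Log2 difference between A172 and U87 control cells (horizontal axis, mean ± SE from limma, 3 against 4 arrays) for the tested Notch probes, with open triangles for lower bounds where no U87 control was well above background and no point for JAG2, which had no bound. All filled points but NOTCH2 probe A_33_P3258824, at -0.60, lie right of 0, HEYL within its error, and with normexp HEYL turns to -0.10.

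The rest of the pathway was described with lists of 66 further genes, read by 91 probes. In A172, 75 of these were tested and limma called 0, with 2 at an unadjusted p under 0.05, and in U87, 62 were tested with 0 called and 0 under 0.05. Over all probes 646 of 28337 in A172 and 505 of 21918 in U87 were under 0.05. With the set as block 7 were called in A172 (3 higher and 4 lower, 9.33% of those tested, beside 3.26% of all probes) and 4 in U87 (3 higher and 1 lower, 6.45%, beside 4.18%), with 15 and 18 at an unadjusted p under 0.05. Over all probes 3031 of 28337 in A172 and 3692 of 21918 in U87 had such a p with the block. Between the knockdowns of the lines 0 of 62 were called with and without the block, with 9 and 0 at an unadjusted p under 0.05. Over all 21161 probes the latter counts were 1757 and 166. Over these probes the median change on the log2 scale stood at -0.10 for A172 and at -0.01 for U87. In control cells 39 of 75 were called (52%), 24 higher in A172 and 15 lower, which is near the share of all probes.

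In the receptor cleavage list, ADAM17, a protease that cuts the receptor outside the membrane, read 1.74, 0.76 and 1.51 in the A172 controls and 0.12, -0.23 and 0.37 in the knockdowns, without overlap. Its log2 fold change of -1.25 ± 0.28 was not called without the block (adjusted p = 0.276) and was called with it (adjusted p = 0.0201, lower in 3 of 3 pairs). In U87 it stood at -0.47 and was lower in 4 of 4 pairs, without a call (adjusted p = 0.197 with the block, below the fold threshold), and the difference between lines was not called (-0.78, adjusted p = 0.421 with the block). With normexp the A172 change was called also without the block, at -1.01 (adjusted p = 0.123), and the difference between lines was called with the block (-0.81, adjusted p = 0.0279). ADAM17 is among the genes that the study listed for A172 from these arrays, so it is not independent evidence. Of the 11 cleavage probes tested, from 9 genes, 9 stood below 0 in A172 and 5 in U87. Their median was -0.17 in A172 and 0.15 in U87, beside 0.02 and -0.02 for all tested probes. PSEN2, a gamma-secretase subunit, stood at -0.44 in A172 and APH1B, another subunit, at 0.40 in U87.

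In nuclear activation, RBPJ was called in U87 with the block. Probe A_23_P29994 ranged from 0.28 to 1.99 in the U87 controls and up to 2.42 in the knockdowns, and A_21_P0013567 read 2.00, 1.83, 2.27 and 2.66 against 2.48, 2.21, 3.28 and 3.16. The knockdown was higher in 4 of 4 pairs with each, although the ranges overlapped. The log2 fold changes were 0.75 ± 0.41 and 0.59 ± 0.31, both with an adjusted p of 1, and called with the block (adjusted p = 0.132 and 0.105). With normexp the A_23_P29994 call was lost at 0.48. In A172 the probes stood at 0.00 and 0.11, and the difference between lines was not called (adjusted p = 0.553 and 0.592 with the block). RBPJ was also lower in A172 controls than in U87 controls, with log2 differences of -2.10 (adjusted p = 0.00229) and -2.47 (adjusted p = 7.92e-05), 3 of 3 A172 controls being below 4 of 4 U87 controls, and was called with each scaling. The coactivators MAML1 (-0.26) and SNW1 (-0.24) in A172 and MAML3 (-0.55) in U87 were not called.

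Of the HES and HEY repressors, 9 probes from 6 genes were tested in A172 and 8 of them stood above 0. Their median was 0.18, beside 0.02 for all tested probes. HES6, which is known to oppose HES1, read -1.42, -0.78 and -0.77 in the A172 controls and -0.04, -0.23 and -0.19 in the knockdowns with probe A_23_P131202, a change of 0.83 ± 0.49 called with the block (adjusted p = 0.195, higher in 3 of 3 pairs), and not in the deposited values, and the difference from U87 was called with normexp and the block alone (0.52, adjusted p = 0.195). None of its 3 other tested probes was called: A_33_P3265359 stood at 0.94 in A172 and 0.76 in U87, A_33_P3322859 at 0.15 and -0.07, and A_33_P3322864 at 0.12 and -0.04. HES2 was called with the block at 0.77 in A172 (adjusted p = 0.115, higher in 3 of 3 pairs), and with none of the 3 other scalings. In U87, 4 of 8 probes stood above 0, among them HES3 at 0.25.

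In receptor glycosylation, LFNG, which adds a sugar to the EGF repeats and shifts the choice of ligand, read -0.60, -1.32 and -1.83 in the A172 controls and -3.20, -2.80 and -3.48 in the knockdowns with probe A_23_P8452. The ranges did not overlap, and the change of -1.91 ± 0.90 was called with the block (adjusted p = 0.07, lower in 3 of 3 pairs) but not in the deposited values. The other LFNG probe, A_23_P434518, stood at 0.20 in A172 and -0.60 in U87, so the probes disagreed. The related enzymes MFNG in A172 (-0.31) and RFNG in U87 (0.25) were not called. Ligand ubiquitination, with MIB and NEURL ubiquitin ligases, had 0 calls among 4 and 3 probes with and without the block in limma. NEURL1 stood at 0.24 and MIB2 at 0.09 in A172, and NEURL1 at 0.11 and NEURL1B at -0.10 in U87.

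Nuclear repression had 17 probes, from 10 genes, tested in A172, of which 15 stood below 0. Their median was -0.12, beside 0.02 for all tested probes. The corepressor TLE3 stood at -0.33 and was not called. In U87 8 of 15 stood below 0, SPEN was at -0.39 with 1 probe and -0.22 with the other, and TLE4 at 0.55 and 0.16, its first probe above background on 2 of 4 controls and 3 of 4 knockdowns, none of them called. In receptor turnover and inhibition, DTX2, a ubiquitin ligase of the Deltex family, was called with the block at 0.55 in A172 with probe A_33_P3502640 (adjusted p = 0.194, higher in 3 of 3 pairs), but with none of the 3 other scalings, and its 3 other probes stood at 0.50, 0.47 and 0.18 and were not called. NUMBL stood at -0.40 in A172, and DTX1 at -0.20 and NUMB at 0.17 in U87, without a call.
Of the non-canonical ligands, DLK1 stood at -0.14 and DLK2 at -0.05 in A172, and DNER at 0.27 and DLK2 at -0.25 in U87, with no call.

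Among genes reported elsewhere as Notch targets, CDKN1A, the cell cycle inhibitor p21, was the gene called in both lines with the block. It read 2.43, 1.77 and 2.78 in the A172 controls and 1.95, 0.96 and 1.33 in the knockdowns. In U87 it read 3.57, 3.22, 4.82 and 3.05 in the controls and 2.70, 2.49, 4.07 and 2.29 in the knockdowns. Every knockdown array was below the control of its set, while the ranges overlapped. The log2 fold changes were -0.91 in A172 and -0.78 in U87, with adjusted p = 1 in both, and 0.0731 and 0.0825 with the block (lower in 3 of 3 and 4 of 4 pairs).
SOX9, a transcription factor of glial progenitors, stood at -0.43 in A172 without a call. In U87 it was called with the block at 0.81 (adjusted p = 0.13, higher in 4 of 4 pairs), with 3 of 4 arrays in each U87 group well above background, and the call was lost with normexp and in the deposited values. The difference between lines was not called for SOX9 (-1.24, adjusted p = 0.335 with the block), except with normexp and the block together (-0.60, adjusted p = 0.0829).

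**Figure D3:**
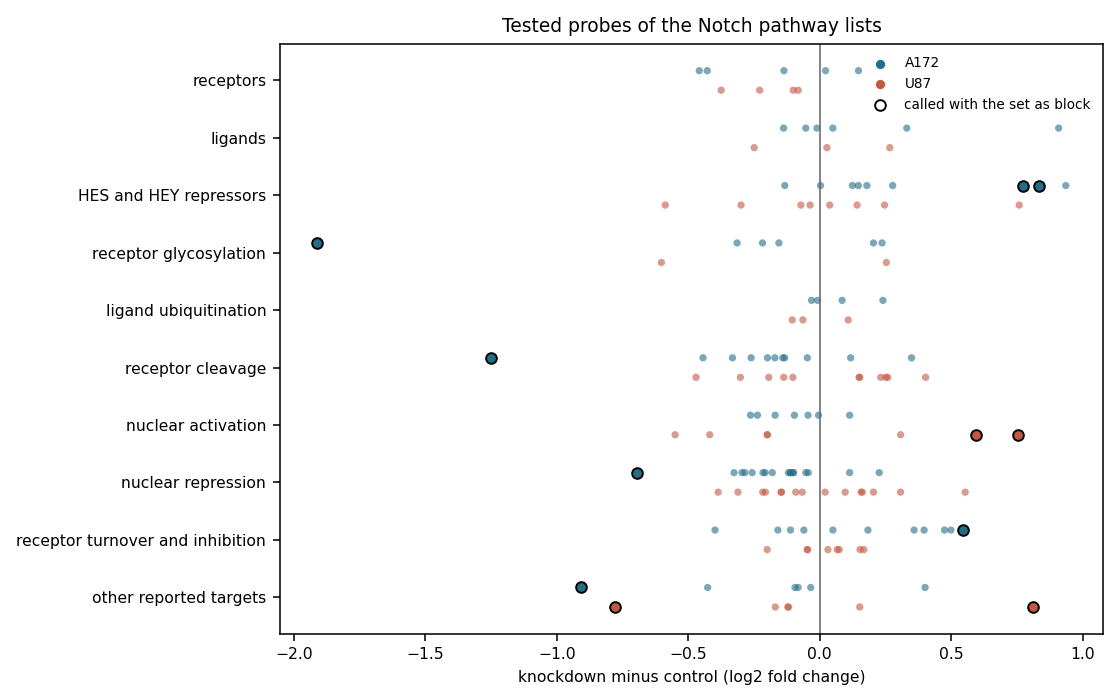
Log2 fold change, knockdown minus control, of each tested probe in 10 Notch pathway lists, A172 in blue above and U87 in red, with outlined points called with the set as block. The outlined points include ADAM17 at -1.25 in A172, both RBPJ probes at 0.59 and 0.75 in U87 and CDKN1A at -0.91 and -0.78; the sign of each outlined point is the same with normexp, quantile normalization and the deposited values.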

How the data were processed

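RNA of 14 cultures was measured on one-colour Agilent arrays. The authors deposited scanner files with spot intensities from Feature Extraction 11.5.1.1 (array design on hg19) together with log2 values in 1 table. The latter ranked spots as the processed signal did (Spearman coefficient 1) and was quantile-normalized, with column medians from 4.49 to 4.56, and its centring before that is not known. Members and gene lists were chosen with earlier results of these data known.

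The log2 processed intensity of 58717 non-control spots was reduced by each array's 75th percentile, outlier spots were left out and spots of a probe averaged (well above background: at least 0.5 of the spots used). Accessions were matched to RefSeq genes (GRCh38.p14), which named 29033 of 50599 probes. A limma 3.58.1 model (R 4.3.3, lmFit and eBayes, 4 group means) was fitted to all tested probes, with Benjamini-Hochberg adjustment within each comparison and the study's thresholds. It was run on simulated data with independent noise on each array and no set effect. That run cannot show how the block performs on paired arrays. Independent experiments set the precision, with 3 or 4 arrays in a group.

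Same-numbered arrays deviated together from their group means (r between 0.675 and 0.794 for the A172 sets, and between 0.373 and 0.864 for those of U87), so the set numbers, which come from the labels, pair the arrays, although U87 set 1 matched another number slightly better (r = 0.403). In A172 the slide is the same block. In U87 the arrays of a set also shared an array column, so set and column cannot be told apart there. Alternatives were normexp background correction of the median signal (offset 50, mean signal not used here), quantile normalization, the deposited log2 values, other filters on dim probes, outlier spots kept, the replicate block, other thresholds, the arrays of 1 line alone, and sets or arrays left out. The block combined with each other scaling was added after the data were seen. Genes named outside the group were those called in a line with or without the block, the 2 per list with the largest change in each line, and the 5 nearest to HES1, which are left out since HES1 was mostly at background. A gene that this rule names is not reported here. Lists covered receptors, ligands, HES and HEY repressors, glycosylation, ubiquitination, cleavage, nuclear activation and repression, turnover, other targets, NOTCH2 copies and cell type markers.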

Additional observations from a re-analysis of the deposited data

Results flagged for a closer look

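In the U87 controls, NOTCH1 probe A_23_P60387 read -3.30 in set 3 and -4.25 to -4.11 in the other sets, a gap of 0.849 of the group's range. The probe was not well above background on any of these arrays, and set 3 was also the dimmest U87 control array, with 35.7% of spots well above background. Of 24 groups of 4 arrays checked in this way, about 1 in 20 would stand out by chance.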

How the results depend on the processing

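The Notch probes called stayed at 0 in A172, in U87 and for the difference under each single alternative, the replicate block included. The number tested was not the same throughout: it was 9 in A172, with 10 without A172 set 2 or its knockdown array, and 6 in U87 and for the difference, with 5, HEYL being left out, under the stricter filter and without U87 set 1, 2 or 3. With no filter it was 12 in each. With the block and normexp together, added after the data were seen, 1 of 9 was called in A172, DLL1 at 0.57. The block with normexp, quantile normalization and the deposited values gave 636, 757 and 679 calls over all probes in A172, 142, 763 and 633 in U87 and 463, 53 and 51 for the difference. Over all probes the A172 count of 52 became 133 with normexp, 34 with no filter, 924 with the replicate block, 27 at an FDR of 0.05 and 12 with A172 alone. It ranged from 4 to 127 with sets or arrays left out: 32, 15 and 4 without A172 sets 1, 2 and 3, 21 without A172 control set 3, 27 without A172 knockdown set 2 or 3, 29, 30 and 127 without U87 sets 1, 2 and 3, and 90 without U87 control set 3. The U87 count of 11 became 4 with normexp, 917 with the block, 7 at an FDR of 0.05 and 6 with U87 alone, and ranged from 2 to 17: 3, 3 and 2 without sets 1, 2 and 4, 4, 4, 17 and 7 without control sets 1 to 4, and 7 without knockdown set 1 or 4. The count of 2 for the difference became 1 with normexp, quantile normalization, the deposited values or an FDR of 0.05 and 89 with the block, and ranged from 0 to 3. The control cell count of 15818 became 15359 with normexp and 32736 with no filter. The Notch probes called there fell from 8 to 3 with normexp.

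Signs turned for small differences. In A172, NOTCH1 A_33_P3370424 stood at -0.0203 with quantile normalization and -0.0188 with the deposited values and ranged from -0.25 to 0.22 with arrays left out, NOTCH3 from -0.0963 to 0.36 and HEYL from -0.0873 to 0.55. In U87, NOTCH3 stood at 0.0181 with normexp, with and without the block, and ranged from -0.23 to 0.12, NOTCH2 A_23_P200792 from -0.57 to 0.0690 and HEYL from -0.68 to 0.31. The differences between knockdowns ranged from -0.50 to 0.14 for that NOTCH2 probe, from -0.0148 to 0.44 for NOTCH3 and from -0.13 to 0.86 for HEYL. In control cells normexp gave -0.41 for JAG2, -0.0169 for DLL1 and -0.0987 for HEYL. NOTCH2 A_33_P3258824 also lost its call there at an FDR of 0.05. For the changes above, the cause was not tested.

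JAG1, HES1 and HEY1 were near or below background in both lines, and JAG2 and DLL1 in U87 alone, so changes in them could not be measured there. With 3 or 4 arrays a group, a probe that was not called is not shown to be unchanged: the median standard error over tested probes was 0.39 log2 units in A172 and 0.32 in U87 without the block. Cell line, slide and scan cannot be told apart, nor can treatment and array row, or set and array column, in U87.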
